A study of Mus musculus with 16 samples.

Results

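The genes described here are 9 transcription factors that pattern the forebrain: Nkx2-1, Sim1, Six3, Otp, Fezf1, Nr5a1, Isl1, Foxp1 and Foxp2. They were chosen by name as known regional regulators, with earlier results of these data already known, and all 9 were found among the 24176 gene symbols of the deposited expression table. Their transcript levels were followed across 16 RNA sequencing libraries from mouse cortex, striatum and hypothalamus, to see which region each one marked and whether deletion of Rai1 altered it. Rai1 encodes a chromatin-associated regulator of transcription whose loss in people causes Smith-Magenis syndrome.

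Transcription factors of this kind are switched on in patches of the embryonic forebrain and give the neurons of each patch their type. Many stay on in the adult neurons that descend from those patches, so that their transcripts act as a regional address. In the hypothalamus, Sim1 and Otp specify neuroendocrine neurons of the paraventricular nucleus, Nr5a1 and Fezf1 belong to the ventromedial nucleus, and Nkx2-1 acts across the ventral hypothalamus and also in the pallidum. In the striatum, Foxp1, Foxp2, Six3 and Isl1 take part in the development of projection neurons, and Isl1 also acts in cholinergic interneurons and in neurons of the arcuate nucleus.

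The libraries fell into 8 groups of 2: a pair labelled wild type and a pair labelled Rai1 conditional knockout (CKO) for each of 4 sets. The sets were 3-week cortex, 3-week striatum, 12-week striatum and 8-week hypothalamus. The knockout groups were Nestin-Cre;Rai1CKO for cortex, Gad2-Cre;Rai1CKO for striatum and Vglut2-Cre;Rai1CKO for hypothalamus. Nestin-Cre acts in neural progenitors and hence in most neural cells, Gad2-Cre in GABAergic neurons and Vglut2-Cre in glutamatergic neurons, so in striatum and hypothalamus other cells kept the gene. The wild-type groups were labelled only as wild type, with no word on whether they carried a Cre or a floxed allele. The strain was B6/FVB F1 for cortex and striatum and B6/129 F1 for hypothalamus. Region, strain, age and Cre line therefore changed together between hypothalamus and the other sets and cannot be told apart. Between cortex and striatum, region and Cre line changed together in the knockout groups and cannot be told apart there either. No label ties the 2 libraries of a group to separate animals, and p-values rest on library-to-library spread that may be technical. Levels are given in RPKM, reads scaled for transcript length and for library depth, and a bulk level cannot tell fewer cells of a type from less RNA per cell.

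The level of Rai1 went against the genotype labels in 3 of the 4 sets. In cortex, Rai1 stood at 4.35 and 5.70 RPKM in the libraries labelled wild type and at 4.28 and 3.03 in those labelled knockout. In striatum at 12 weeks it stood at 5.08 and 4.88 RPKM against 12.3 and 13.3, a log2 difference of 1.28 (SE 0.17; limma, adjusted p = 0.0164), higher in both libraries labelled knockout. At 3 weeks the striatal libraries labelled knockout held 6.52 and 7.01 RPKM against 3.77 and 3.24. The hypothalamic ones held 8.47 and 6.52 RPKM against 3.68 and 3.99. In striatum and hypothalamus the groups did not overlap and the higher values lay in the libraries labelled knockout. The log2 differences in 3-week striatum (0.86; limma, adjusted p = 0.222) and hypothalamus (0.87; limma, adjusted p = 0.481) were not called. Of all tested genes, 10.3% and 9.65% were higher without overlap in those sets. The labels do not name the deleted exons, and a level over the whole gene may include transcript left outside them. The part of such transcript in the Rai1 levels was not tested. The genotype groups are therefore called by their labels throughout.

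Depth was an estimated 43400000 to 71300000 counting steps each, where a step is the RPKM worth of 1 read or 1 end of a read pair. Markers of the labelled region were highest in that region. The summed level of 10 hypothalamic peptide genes was 272 to 314 RPKM in the 4 hypothalamic libraries and at most 13.3 in the other 12. The sum of 10 striatal markers was 870 to 1330 RPKM in the 8 striatal libraries, 73 to 129 in cortex and 39.4 to 52.4 in hypothalamus. Cortical markers summed to 176 to 201 RPKM in cortex and to at most 32.1 elsewhere. The 9 thalamic markers summed to 41.6 to 47.2 RPKM in the hypothalamic libraries, 12.8 to 14.5 in cortex and 6.88 to 9.04 in striatum, and their part in the hypothalamic levels of the members was not tested. Cortex labelled knockout replicate 1 stood apart from the other cortical libraries: it held the hypothalamic peptide transcripts Avp at 3.52 and Hcrt at 0.697 RPKM, while the other cortical libraries held at most 0.135 and 0.234.

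Upstream sequence was available for 7 of the 9 genes, in RefSeq coordinates of GRCm38.p6. Fezf1, Sim1 and Otp are shown because their transcripts were at or near 0 outside the hypothalamus, and Isl1 is shown because it was present in all 3 regions. Each line gives the 250 bases before the annotated start, 5′ to 3′ on the gene's own strand, with CG dinucleotides in capitals. Fezf1 lies at chr6:23248265-23248514 on the minus strand, Sim1 at chr10:50895401-50895650 on the plus strand, Otp at chr13:94875386-94875635 on the plus strand and Isl1 at chr13:116309689-116309938 on the minus strand.
Fezf1: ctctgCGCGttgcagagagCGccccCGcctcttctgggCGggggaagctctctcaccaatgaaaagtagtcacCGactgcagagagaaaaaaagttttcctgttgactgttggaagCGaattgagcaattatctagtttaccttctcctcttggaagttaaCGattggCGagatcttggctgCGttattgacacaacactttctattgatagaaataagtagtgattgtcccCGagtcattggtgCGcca
Sim1: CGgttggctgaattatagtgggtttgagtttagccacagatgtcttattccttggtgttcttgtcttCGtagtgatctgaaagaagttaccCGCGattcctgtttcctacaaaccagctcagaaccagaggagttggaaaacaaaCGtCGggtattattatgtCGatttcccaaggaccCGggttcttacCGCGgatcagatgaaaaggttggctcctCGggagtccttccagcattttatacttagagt
Otp: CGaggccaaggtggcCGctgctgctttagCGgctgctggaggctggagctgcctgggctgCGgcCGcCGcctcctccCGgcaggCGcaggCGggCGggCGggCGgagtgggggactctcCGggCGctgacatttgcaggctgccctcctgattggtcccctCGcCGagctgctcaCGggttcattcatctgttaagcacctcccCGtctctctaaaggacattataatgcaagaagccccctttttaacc
Isl1: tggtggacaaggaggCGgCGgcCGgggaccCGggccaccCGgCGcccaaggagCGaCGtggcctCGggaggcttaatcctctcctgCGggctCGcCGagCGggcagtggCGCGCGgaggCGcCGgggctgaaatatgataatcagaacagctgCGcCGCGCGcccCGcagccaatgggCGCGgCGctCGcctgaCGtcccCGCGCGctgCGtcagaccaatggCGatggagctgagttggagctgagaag

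In a 300-base window that adds the first 50 transcribed bases, Fezf1 and Sim1 each held 13 CG dinucleotides, Otp 20 and Isl1 37. The median over all 32851 promoters of the table was 7, and the upper quartile 20. The 3 annotated starts of Foxp1 differed among themselves, with 13, 5 and 44, while Six3 held 14 and Nkx2-1 12. All but 1 of the 9 promoter windows of these genes thus held more CG dinucleotides than the median promoter. The CCAAT box (CCAAT) was found on either strand in 5 of the 9 windows, against 37.4% of all promoters, and the GC box (GGGCGG) in 5, against 35.7%. The homeodomain core TAATTA occurred in 1 window, of Foxp1, against 5.3% of all promoters, and the TATA box TATAAA in 1 window, of Sim1, against 13.6%. The 4 other motifs searched were in none of the 9 windows: the E-box CACGTG, the Nkx2 core CAAGTG, the forkhead core TGTTTAC and the Nr5a1 half-site AAGGTCA, which stood in 7.2%, 13.6%, 3.6% and 4.7% of all promoters. The GC box, which contains a CG dinucleotide, overlaps the dinucleotide count. A match in these windows is a description of letters and not a binding site.

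Fezf1, Nr5a1, Sim1 and Otp were present in all 4 hypothalamic libraries and at or near 0 in the other 12. Fezf1, a zinc-finger repressor, stood at 3.37 and 3.42 RPKM in hypothalamus labelled wild type and at 3.80 and 3.88 in hypothalamus labelled knockout. It was listed at 0 in all 8 striatal libraries, where 3 counting steps would have given at most 0.029 RPKM, and its highest cortical value was 0.0890. Nr5a1 (steroidogenic factor 1), a nuclear receptor, stood at 2.43 and 2.56 RPKM in hypothalamus labelled wild type and at 3.00 and 3.65 in that labelled knockout. Its values in the other 12 libraries ran from 0 through a median of 0.0154 to 0.0690. Every hypothalamic library lay above every other library for both genes. Sim1, a basic helix-loop-helix PAS factor, stood at 2.34 and 3.04 RPKM in hypothalamus labelled wild type and at 2.43 and 2.36 in that labelled knockout, and reached at most 0.0808 elsewhere. Otp, a homeodomain factor that also specifies paraventricular neurons, was the least abundant of the 4, at 0.546 and 0.998 RPKM against 0.687 and 0.505. Otp was listed at 0 in 10 of the 12 other libraries and at 0.0383 and 0.0381 in the remaining 2. Behind these levels stood about 353 to 423 counting steps per hypothalamic library for Fezf1, and about 60.7 to 124 for Otp.

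Nkx2-1 was also highest in hypothalamus but was not at 0 elsewhere. This homeodomain factor stood at 1.47 and 1.12 RPKM in hypothalamus labelled wild type and at 1.72 and 1.45 in that labelled knockout. In the 8 striatal libraries it ran from 0.0813 through a median of 0.206 to 0.299 RPKM, and in the 4 cortical libraries from 0.0953 to 0.136. The hypothalamic values did not overlap with either of the other regions, whereas the striatal range enclosed the cortical one.

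**Figure D1:**
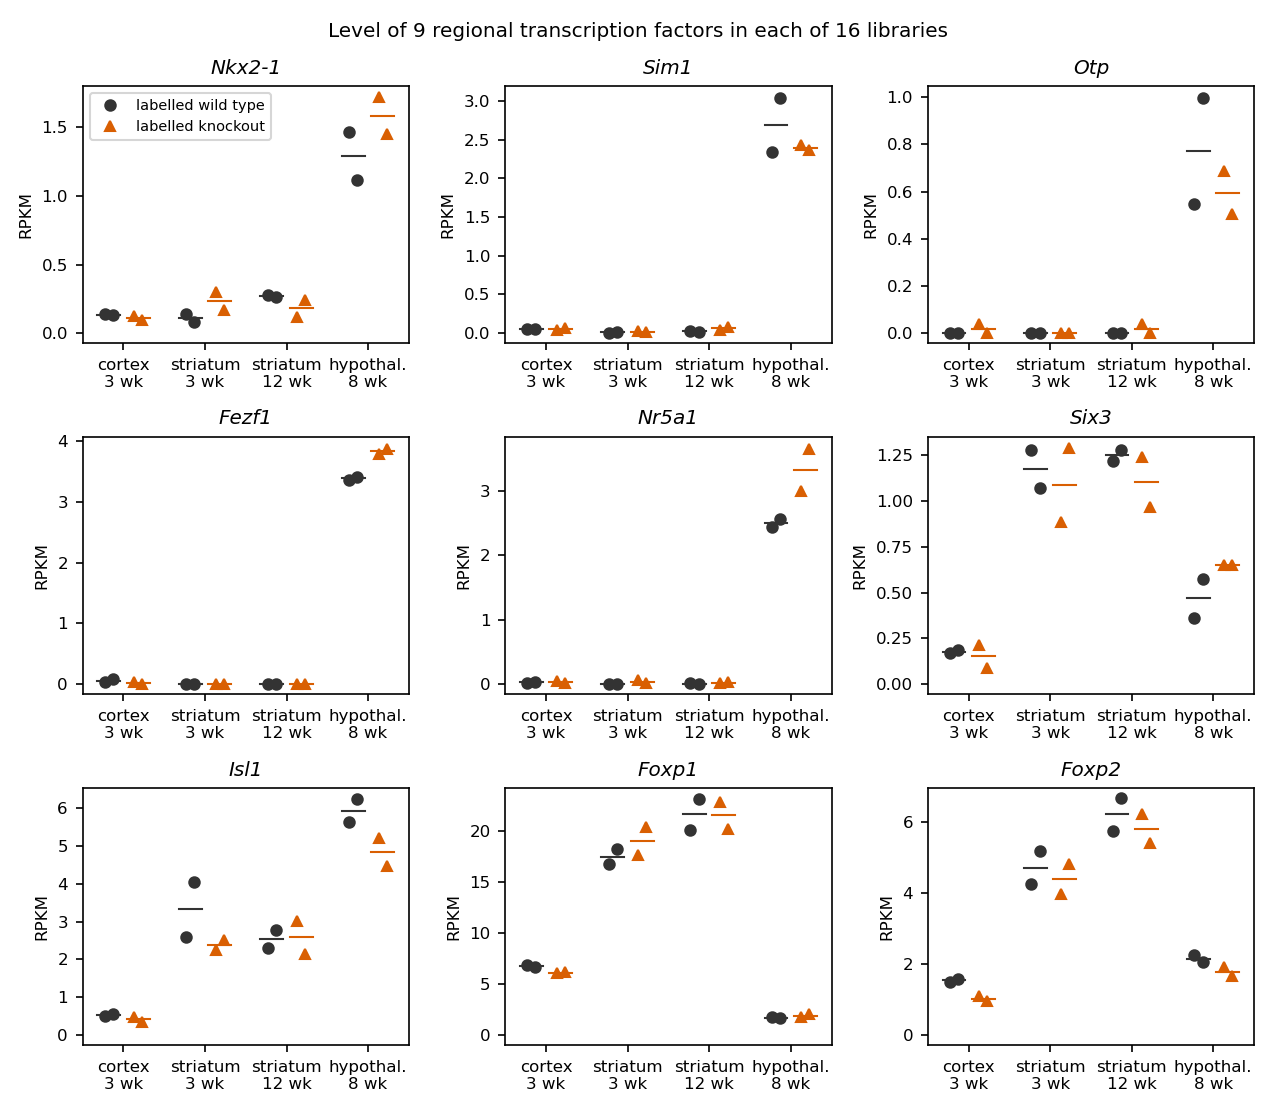
Levels in RPKM (linear vertical axis that includes 0, a different scale for each gene) of the 9 transcription factors in each of 16 libraries, by region and age, with circles for libraries labelled wild type, triangles for libraries labelled knockout and bars for the mean of 2. Nkx2-1, Sim1, Otp, Fezf1 and Nr5a1 stand high only in the 4 hypothalamic libraries, Six3, Foxp1 and Foxp2 stand highest in the 8 striatal ones, and Isl1 runs from at most 0.569 in cortex to at most 6.24 in hypothalamus.

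Foxp1 had the highest level of the 9 genes in cortex and in striatum and was lowest in hypothalamus among the 3 regions. It encodes a forkhead repressor of striatal projection neurons that is also made in cortical projection neurons. Its striatal values were 16.7 and 18.2 RPKM (3 weeks, labelled wild type), 17.6 and 20.4 (3 weeks, labelled knockout), 20.1 and 23.1 (12 weeks, labelled wild type) and 22.8 and 20.2 (12 weeks, labelled knockout). In cortex it stood at 6.9 and 6.68 RPKM in libraries labelled wild type and at 6.04 and 6.13 in those labelled knockout. The hypothalamic values were 1.74, 1.65, 1.81 and 2.03 RPKM. The 3 regions did not overlap, in the order striatum, cortex, hypothalamus.

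Foxp2, its paralogue and the gene mutated in an inherited speech disorder, shared the striatal maximum but not the order below it. It stood at 4.26 and 5.17 RPKM in 3-week striatum labelled wild type, at 3.98 and 4.81 in that labelled knockout, and at 5.75, 6.67, 6.23 and 5.40 in the 12-week libraries. In cortex Foxp2 stood at 1.5 and 1.59 RPKM in libraries labelled wild type and at 1.09 and 0.967 in those labelled knockout. The hypothalamic values were 2.25 and 2.06 against 1.92 and 1.66 RPKM. Every striatal value lay above every other one, and every hypothalamic value lay above every cortical one, so that cortex held the least Foxp2 and hypothalamus the least Foxp1. Per transcript length, the level of Foxp1 was 3.47 to 4.41 times that of Foxp2 in the 8 striatal libraries and 4.21 to 6.34 times in the 4 cortical ones. In the hypothalamus the ratio was 0.774 to 1.22, outside the range of both other regions.

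Six3 marked the striatum at a low level. This homeodomain factor, which acts in the differentiation of indirect-pathway striatal neurons, stood at 1.28 and 1.07 RPKM in 3-week striatum labelled wild type and at 0.884 and 1.29 in that labelled knockout. At 12 weeks the values were 1.22 and 1.28 against 1.24 and 0.969. The hypothalamus held 0.363 and 0.577 against 0.650 and 0.649 RPKM, and the cortex 0.0881 to 0.215. The 3 regions did not overlap, in the order striatum, hypothalamus, cortex. An antisense transcript starts beside Six3, and no label states the strand setting of the authors' counting, so reads of the 2 cannot be told apart.

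Isl1 was highest in hypothalamus but also present throughout the striatum. This LIM-homeodomain factor stood at 5.63 and 6.24 RPKM in hypothalamus labelled wild type and at 5.20 and 4.46 in that labelled knockout. In striatum the values were 2.60 and 4.06 against 2.24 and 2.52 RPKM at 3 weeks, and 2.30 and 2.78 against 3.02 and 2.15 at 12 weeks. Cortex held 0.505 and 0.569 against 0.483 and 0.358 RPKM. The order was hypothalamus, striatum, cortex without overlap, and the 2 nearest values across regions were 4.46 in hypothalamus and 4.06 in striatum.

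These differences were tested on log2(RPKM + 0.5), a scale that understates the change of low genes, with limma over the 12348 genes that reached 1 RPKM in at least 2 libraries. Otp reached 1 RPKM in no library and was not tested. Fezf1, Nr5a1, Sim1 and Nkx2-1 passed that filter through the hypothalamus alone, and Six3 through the striatum alone, so these 5 had to differ between regions, and their tests are given for size and error. Among libraries labelled wild type, Isl1, Foxp1, Foxp2 and Six3 were higher in striatum than in cortex at 3 weeks, and no member was lower. That is 4 of 8 tested members, beside 43.5% of all tested genes called (22.9% higher and 20.6% lower). Six3, among these 4, had passed the filter through the striatum alone, whereas Isl1, Foxp1 and Foxp2 had not. The log2 differences were 1.86 for Isl1 (SE 0.19; limma, adjusted p = 4.56e-06), 1.34 for Foxp2 (SE 0.14; limma, adjusted p = 6.86e-06), 1.30 for Foxp1 (SE 0.13; limma, adjusted p = 4.31e-06) and 1.31 for Six3 (SE 0.17; limma, adjusted p = 3.45e-05). In untransformed means, Six3 was 6.64-fold, Isl1 6.20-fold, Foxp2 3.05-fold and Foxp1 2.57-fold higher in striatum. Both striatal libraries lay above both cortical ones for each of these 4 genes, beside 41.3% of all tested genes. The 4 hypothalamic genes tested differed by -0.16 to -0.06, with intervals that included 0.

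Between hypothalamus and 12-week striatum, 5 of 8 tested members were higher and 3 lower, beside 54.5% and 10.2% of all tested genes (64.8% in all). Fezf1, Sim1, Nr5a1 and Nkx2-1 had to be higher and Six3 lower because of the filter, so these counts do not measure enrichment. Isl1, Foxp1 and Foxp2 were free to fall either way. The median of all tested genes was itself 0.49 higher in hypothalamus on the log2 scale, and differences should be read against that shift. Foxp1 was lower, with a log2 difference of -3.33 (SE 0.13; limma, adjusted p = 4.29e-10), as were Foxp2 at -1.33 (SE 0.14; limma, adjusted p = 3.19e-06) and Six3 at -0.86 (SE 0.17; limma, adjusted p = 5.52e-04). Isl1 was higher by 1.08 (SE 0.19; limma, adjusted p = 2.32e-04), 2.34-fold in untransformed means. Fezf1 stood 2.96, Sim1 2.60, Nr5a1 2.56 and Nkx2-1 1.21 higher, with SE of 0.12 to 0.15. Without the filter, Otp was 1.32 higher (SE 0.13; limma, adjusted p = 1.74e-05 over 20473 genes).

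The comparison of hypothalamus with 3-week cortex uses the same hypothalamic libraries. There 7 of 8 tested members were higher and 1 lower, beside 42.6% and 13.4% of all tested genes (56% in all), with a median shift of 0.34. Fezf1, Sim1, Nr5a1 and Nkx2-1 are among the 7 and had to be higher, so the 7 do not measure enrichment. Isl1 showed a log2 difference of 2.63 (SE 0.19; limma, adjusted p = 1.63e-07), an 11-fold difference in untransformed means. Foxp1 was the gene that was lower, at -1.73 (SE 0.13; limma, adjusted p = 2.48e-07). Six3 was higher by 0.51 (SE 0.17; limma, adjusted p = 0.0192). The Six3 call was lost with median-ratio scaling (0.35; limma, adjusted p = 0.0658) and without either cortical library or hypothalamus replicate 2 (0.35 to 0.53; limma, adjusted p = 0.0571 to 0.173). Fezf1, Sim1, Nr5a1 and Nkx2-1 were higher by 2.80, 2.53, 2.50 and 1.49. Foxp2 was higher by 0.38 (SE 0.14; limma, adjusted p = 0.0356), close to the shift of all genes. When libraries were scaled to a common median ratio, the Foxp2 difference was 0.09 (limma, adjusted p = 0.509), and without any 1 of the 4 libraries its adjusted p was 0.0794 to 0.156. In libraries labelled knockout, the same members were called in the same directions in all 3 comparisons: 4 higher between striatum and cortex (30.9% of all genes called, 12.2% higher and 18.7% lower), 5 higher and 3 lower between hypothalamus and striatum (52.2%, 41.5% and 10.7%), and 7 higher and 1 lower between hypothalamus and cortex (51%, 38% and 12.9%). These counts, too, hold the members that had to differ. In these libraries the Six3 difference between hypothalamus and striatum (-0.48; limma, adjusted p = 0.0269) was no longer called with a pseudocount of 0.1 (adjusted p = 0.059), or without 1 of 3 libraries: striatum replicate 1 (-0.35, adjusted p = 0.178) or either hypothalamic library (adjusted p = 0.0814 and 0.0972).

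**Figure D2:**
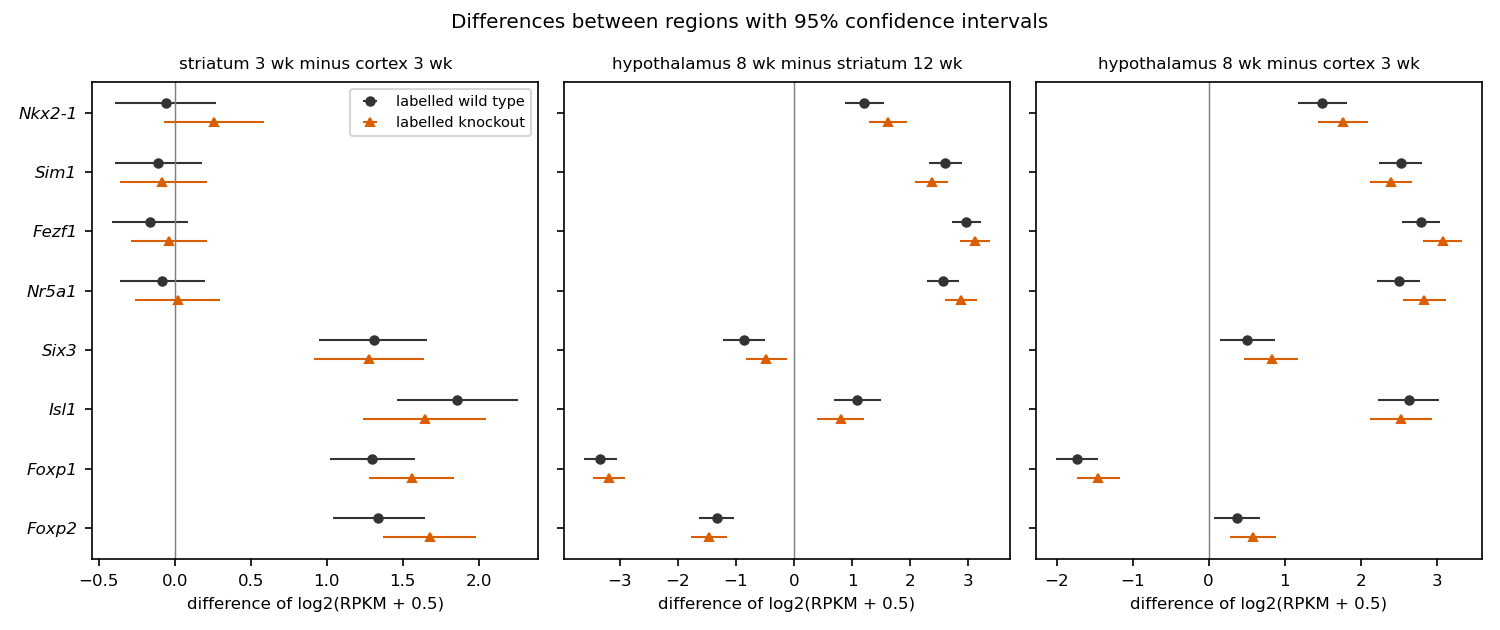
Differences between regions in log2(RPKM + 0.5) on the horizontal axis for the 8 tested transcription factors, with 95% confidence intervals, for libraries labelled wild type (circles) and labelled knockout (triangles). Foxp1 is at -3.33 between hypothalamus and 12-week striatum and Foxp2 at -1.33, while Isl1 is at 1.08, and circles and triangles of a gene lie on the same side of 0 wherever either interval excludes 0.

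The other transcription factors of each region were set beside the members as named lists, which contain the members. Of 20 hypothalamic factors, 13 were tested, and all but Pou3f2 passed the filter through the hypothalamus alone and so had to differ. All 13 were higher in hypothalamus than in 12-week striatum, with a median log2 difference of 1.89 against 0.49 over all genes. Against cortex 12 were higher, with a median of 2.19 against 0.34. Over all tested genes, 54.5% were higher than in striatum and 42.6% higher than in cortex. Because of the filter, the counts of 13 and 12 do not measure enrichment. Foxb1 of the mammillary region (3.07 against striatum) and Nkx2-4 (2.69) stood with Fezf1 (2.96) among the largest differences. Pou3f2, a POU factor of many brain regions, was the exception: it was lower in striatum than in cortex (-0.88; limma, adjusted p = 3.97e-04) and differed by 0.00 between hypothalamus and cortex.

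Of 20 striatal and subpallial factors, 16 were tested, and 14 were higher in striatum than in cortex at 3 weeks and none lower (median 1.19 against 0.08 over all genes), beside 22.9% higher and 20.6% lower over all genes. Of the 16, Six3, Sp9, Zfp503 and Ikzf1 passed the filter through the striatum alone and so had to be higher there than in some other region. Of the other 12, 10 were higher. The retinoid receptors Rxrg and Rarb differed most, by 3.36 and 3.19, followed by Isl1 (1.86) and Meis2 (1.53). Of the 16, 13 were lower in hypothalamus than in 12-week striatum (median -0.97), led by Bcl11b (-3.83), Meis2 (-3.58), Foxp1 (-3.33) and Rarb (-3.30). Over all tested genes, 10.2% were lower and 54.5% higher, with a median of 0.49. Of the 12 that had not passed through the striatum alone, 9 were lower and 3 higher. Dlx1 (1.61), Isl1 (1.08) and Zfhx3 (1.03) were the 3 that were higher. Isl1 thus shared its order of regions with Zfhx3, which also had a larger value in hypothalamus than in cortex (1.74).

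Of 22 cortical factors, 19 were tested. In striatum 16 were lower than in cortex (median -2.11 against 0.08 over all genes) and 1, Pou3f1, was higher (0.96). Over all tested genes, 20.6% were lower and 22.9% higher. Of the 19, 4 passed the filter through the cortex alone, and of the other 15, 12 were lower. Neurod6 (-4.45), Neurod2 (-3.79) and Tbr1 (-3.72), markers of excitatory cortical neurons, differed most. All 19 were lower in hypothalamus than in cortex (median -2.03 against 0.34 over all genes), among them the 15 that had not passed through the cortex alone. Of all tested genes, 13.4% were lower and 42.6% higher in that comparison. None of the 9 members was highest in cortex, so no member marked that region in these data. Foxp4, the third FoxP gene of the brain, was lower in striatum than in cortex (-0.73; limma, adjusted p = 6.56e-04) and higher in hypothalamus than in striatum (0.77; limma, adjusted p = 2.22e-04), the reverse of Foxp1 and Foxp2 in both comparisons.

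**Figure D3:**
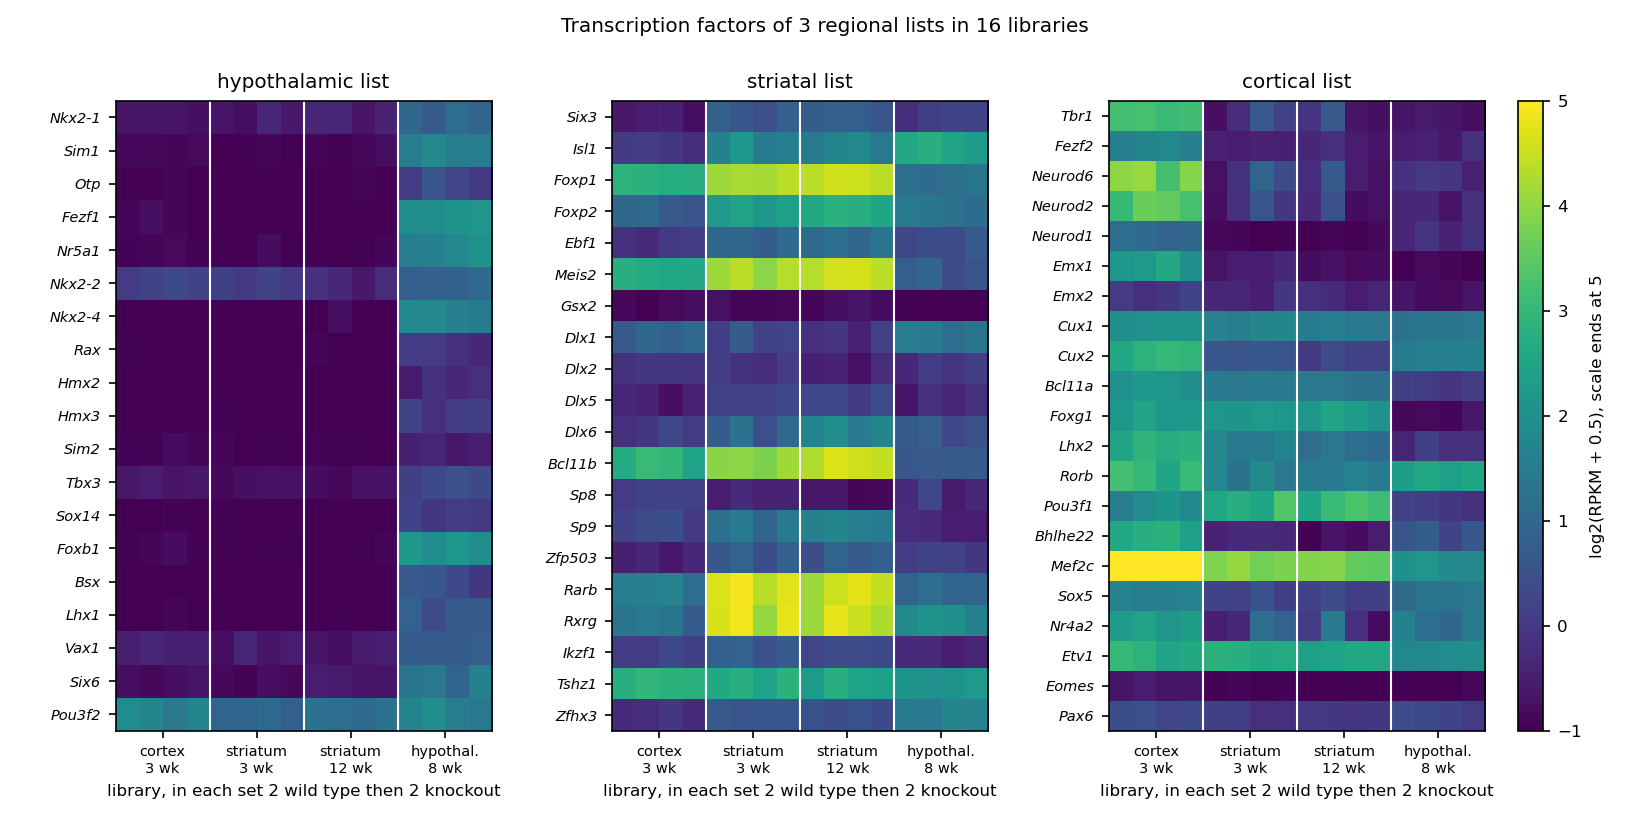
Level of the reported transcription factors of the hypothalamic, striatal and cortical lists, in colour as log2(RPKM + 0.5) with the scale ending at 5, in the 16 libraries grouped by set, with 2 libraries labelled wild type before 2 labelled knockout. Most of the hypothalamic list is brighter in the 4 hypothalamic libraries than elsewhere, though well below the end of the scale. In the striatal list Foxp1, Meis2, Bcl11b, Rarb and Rxrg are bright in the 8 striatal libraries while Isl1 is brightest in the hypothalamic ones.

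Genes that the members help to specify were examined the same way. Of 17 peptide and receptor genes of hypothalamic neurons, 15 were tested; 11 were higher and 3 lower in hypothalamus than in 12-week striatum (median 1.82 against 0.49 over all genes), beside 54.5% higher and 10.2% lower over all genes. Of the 15, 5 passed the filter through the hypothalamus alone, and of the other 10, 6 were higher and 3 lower. Avp (6.62) and Oxt (5.52), the peptides of Sim1- and Otp-dependent neurons, differed most, followed by Adcyap1 (5.15), made in ventromedial neurons, and Cartpt (4.91). Of 7 cholinergic interneuron genes, 6 were tested and 5 were higher in striatum than in cortex (22.9% of all genes were), but 4 of the 6 passed the filter through the striatum alone, among them Chat, which encodes choline acetyltransferase, by 2.10 (limma, adjusted p = 3.05e-05). Chat was lower in hypothalamus than in striatum (-2.41; limma, adjusted p = 3.98e-06), opposite in direction to Isl1. Of 8 genes linked to FoxP2 or FoxP1 in the literature, 6 were tested; 4 were lower in striatum than in cortex, led by Mef2c (-2.11) and Rorb (-1.59), and none was higher, beside 20.6% lower and 22.9% higher over all genes.

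The members' profiles were then compared with those of 12340 other tested genes by Pearson r over the 16 libraries. These libraries share only 3 regions, so r mostly restates the regional order, and many genes reach high values: 947 genes had r over 0.9 with Fezf1 and 90 with Six3. Among the 3 nearest to Fezf1 were Asb4 (0.999) and Glra1 (0.998), and both were also among the 3 nearest to Nr5a1 (0.997 and 0.996). Asb4 stood at 6.21 to 8.09 RPKM in hypothalamus and at most 0.172 elsewhere. Sim1 was nearest to Glra1, Gpr50 and Lhx5 (each 0.997), and Nkx2-1 to Lhx1os (0.978), Slc18a2 (0.977) and B230323A14Rik (0.976). Slc18a2, the vesicular monoamine transporter, resembled Nkx2-1 in being present outside the hypothalamus, at 1.09 to 1.57 RPKM in striatum and 0.794 to 1.12 in cortex. Among members, Nkx2-1, Sim1, Otp, Fezf1 and Nr5a1 had r of 0.93 to 1 with each other.

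Foxp1 was nearest to Meis2 (0.994), Lpl (0.993) and Adora2a (0.993), and Foxp2 to Tomm70a (0.989), Dach1 (0.988) and Spock3 (0.985). Adora2a, the adenosine receptor of indirect-pathway neurons, stood at 66.8 to 113 RPKM in striatum, 4.11 to 9.80 in cortex and 0.148 to 0.323 in hypothalamus, the order of Foxp1. Dach1 stood at 3.63 to 6.36 RPKM in striatum, 0.656 to 0.769 in hypothalamus and 0.238 to 0.657 in cortex, the order of Foxp2. Six3 was nearest to Tbc1d4 (0.977), Ric8b (0.964) and Sgpp2 (0.959), and Isl1 to Ap1s2 (0.979), Itfg1 (0.970) and Nipal2 (0.964). Foxp1 and Foxp2 had r of 0.77 with each other, below the 0.92 between Foxp2 and Six3.

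Genotype labels were compared within each set. No tested member was called in cortex (0 of 8, beside 0.0405% of all genes), in striatum at 3 weeks (0 of 8, beside 0.0324%), in striatum at 12 weeks (0 of 8, beside 0.0405%) or in hypothalamus (0 of 8, beside 0.0081%). At an unadjusted limma p under 0.05 there was 1 member in cortex, 1 in hypothalamus and none in either striatal set. So few genes were called anywhere that a count of 0 says little about the members, and their intervals say more.

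**Figure D4:**
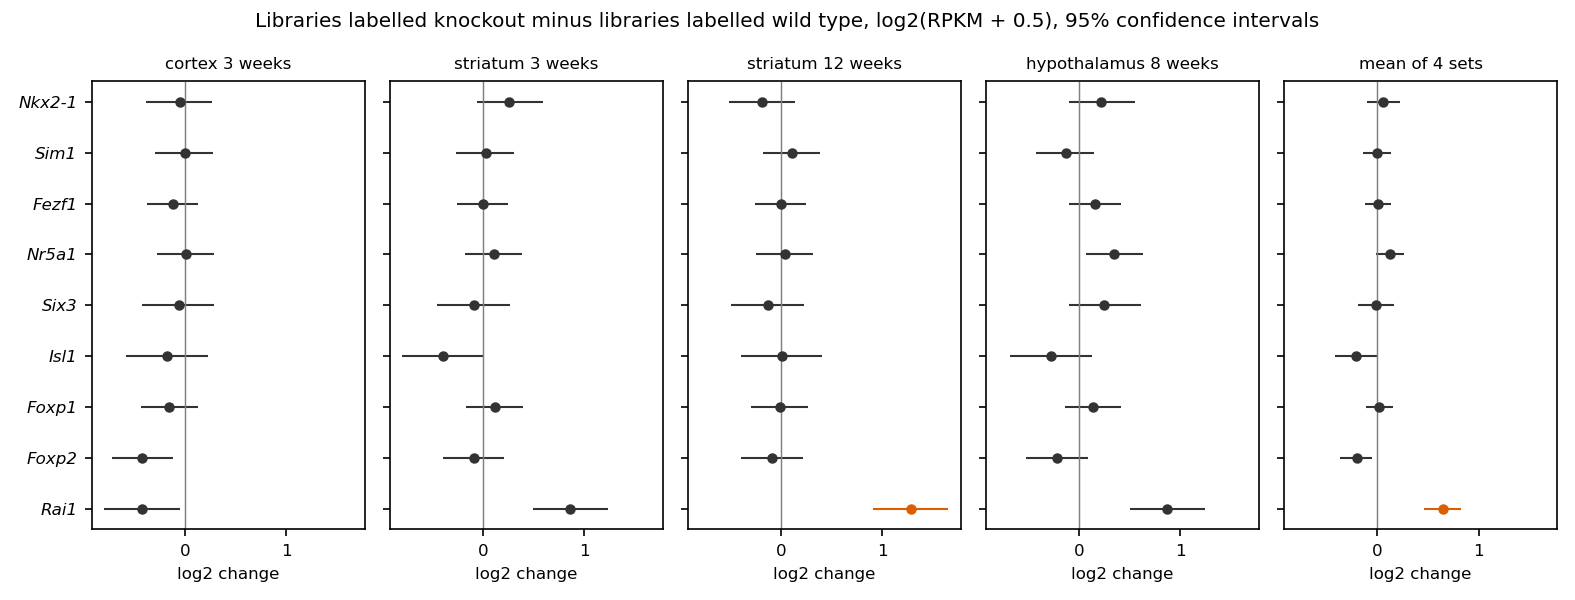
Log2 differences of libraries labelled knockout minus libraries labelled wild type (horizontal axis, log2(RPKM + 0.5)) with 95% confidence intervals for the 8 tested transcription factors and Rai1, in each of 4 sets and over their mean, with called differences in orange. No transcription factor is called, the lowest estimate is -0.42 for Foxp2 in cortex, and Rai1 is at 1.28 in striatum at 12 weeks.

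Foxp2 had the largest estimate in cortex. Both cortical libraries labelled knockout (1.09 and 0.967 RPKM) lay below both labelled wild type (1.5 and 1.59), with a log2 difference of -0.42 (95% interval -0.72 to -0.12; limma, adjusted p = 0.553). Its estimates were -0.09 in striatum at 3 weeks, -0.09 at 12 weeks and -0.22 in hypothalamus, where the values of the 2 groups also did not overlap. Averaged over the 4 sets, Foxp2 was at -0.20 (95% interval -0.36 to -0.05; limma, adjusted p = 0.669), and 0 of 8 members were called in that mean, beside 0.373% of all genes. Leaving out the cortical set, a choice made after seeing the data, gave -0.13.

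Other genes moved with Foxp2 in cortex. The 10 striatal markers summed to 111 to 129 RPKM in the cortical libraries labelled wild type and to 73 to 96.9 in those labelled knockout, and all 10 had negative estimates with none called. Drd1, the dopamine receptor of direct-pathway neurons, stood at 7.74 and 9.66 RPKM against 5.99 and 5.30, and Penk, the enkephalin gene, at 21.8 and 26.8 against 17.2 and 10.1. The 6 oligodendrocyte markers, among them Mbp, summed to 605 to 700 RPKM against 1070 to 1100, all 6 with positive estimates and none called. The part of these shifts in the Foxp2 difference was not tested. Without the cortical library that held Avp and Hcrt, the Foxp2 estimate was -0.48.

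Isl1 was at -0.39 in striatum at 3 weeks (95% interval -0.79 to 0.01; limma, adjusted p = 0.619), where 4.06 RPKM in 1 library labelled wild type stood above the other 3 values of 2.24 to 2.60. It was at -0.27 in hypothalamus, at -0.17 in cortex and at 0.01 in striatum at 12 weeks. Over the mean of the 4 sets Isl1 was at -0.21 (95% interval -0.41 to 0.00; limma, adjusted p = 0.934). The estimates were negative in 3 of 4 sets, and the groups did not overlap in those 3, as held in the lower direction for 21.6% of all genes in cortex, 23.9% in striatum at 3 weeks and 24.6% in hypothalamus. At 3 weeks, striatum labelled knockout replicate 1 stood apart, with 9 pituitary markers summing to 3.07 RPKM against 0.686 to 1.06 in the other 3 libraries and striatal markers to 870 against 1150 to 1330. Without that library the Isl1 estimate was -0.32, and without replicate 2 labelled wild type, which held the value of 4.06, it was -0.11.

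Nr5a1 had the largest estimate in hypothalamus. Both hypothalamic libraries labelled knockout (3.00 and 3.65 RPKM) lay above both labelled wild type (2.43 and 2.56), with a log2 difference of 0.35 (95% interval 0.07 to 0.63; limma, adjusted p = 1). Fezf1, the other ventromedial factor, was at 0.16 (95% interval -0.10 to 0.41) and its groups did not overlap either. Six3 was at 0.25 (-0.10 to 0.61), Nkx2-1 at 0.22 (-0.10 to 0.55), Foxp1 at 0.14 (-0.14 to 0.41) and Sim1 at -0.13 (-0.42 to 0.15). Otp, tested without the filter, was at -0.20 (95% interval -0.49 to 0.10; limma, adjusted p = 1). Bsx, a homeodomain factor of the hypothalamic list, was at -0.51, from 1.11 and 1.05 RPKM to 0.752 and 0.480, and Adcyap1 at -0.44, from 19.7 and 17.9 RPKM to 13.5 and 13.8, neither called (limma, adjusted p = 1 for both). These were chosen after their values were seen: of the 13 hypothalamic factors 7 had positive and 6 negative estimates (median 0.02), and of the 15 peptide and receptor genes 5 positive and 10 negative (median -0.21), against a median of -0.06 over all genes.

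In hypothalamus, 4 of the 9 members were higher without overlap and 2 lower, beside 9.65% and 24.6% of all tested genes. Cortex held 5 lower and 0 higher, beside 21.6% and 9.3%. At 3 weeks the striatum held 2 higher and 1 lower, beside 10.3% and 23.9%, and at 12 weeks 1 higher and 1 lower, beside 19.9% and 8.16%. Several of these members stood below 0.3 RPKM in the set concerned, such as Nkx2-1 in striatum (0.137 and 0.0813 against 0.299 and 0.167 at 3 weeks, and 0.280 and 0.263 against 0.118 and 0.245 at 12 weeks). The order of the Nkx2-1 groups was thus opposite at the 2 ages, with a difference between ages of -0.45 (95% interval -0.91 to 0.01; limma, adjusted p = 0.532).

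Foxp1, Foxp2 and Six3, the members highest in striatum, had small estimates for the genotype label there. Isl1, also of the striatal list, had the larger estimate of -0.39 at 3 weeks given above. Foxp1 was at 0.12 (95% interval -0.16 to 0.40) at 3 weeks and at -0.01 (-0.29 to 0.27) at 12 weeks. Foxp2 was at -0.09 (-0.39 to 0.21) and -0.09 (-0.39 to 0.22), and Six3 at -0.09 (-0.45 to 0.27) and -0.13 (-0.49 to 0.23). These intervals leave room for differences of the order of 0.3 to 0.5 on the log2 scale. No list of transcription factors held a gene called by genotype label: 0 of 13 hypothalamic, 0 of 16 striatal and 0 of 19 cortical factors in each of the 4 sets. Tests of whether the genotype difference itself changed between sets called no member: 0 of 8 between striatum at 12 and 3 weeks (smallest adjusted p = 0.532, beside 0% of all genes), 0 of 8 between striatum and cortex at 3 weeks (0.693, beside 0.0162%) and 0 of 8 between hypothalamus and 12-week striatum (0.946, beside 0%), all by limma.

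For the genotype label in striatum at 3 weeks, 8 of the 9 cortical markers had positive estimates and 1 a negative one. At 12 weeks 1 was positive and 8 were negative. Tbr1 stood at 0.0918 and 0.344 RPKM against 1.10 and 0.627 in striatum labelled knockout at 3 weeks, and at 0.444 and 1.10 against 0.124 and 0.0907 at 12 weeks. The 9 cortical markers summed to 19.3 to 27.3 against 29.7 to 32.1 RPKM at 3 weeks and to 14 to 24.5 against 13.1 at 12 weeks. None of the cortical markers was called, and their part in the striatal estimates of the members was not tested.

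With age, the striatal level of the FoxP genes had positive estimates that were not called. In libraries labelled wild type, Foxp2 was at 0.37 between 12 and 3 weeks (95% interval 0.06 to 0.67; limma, adjusted p = 0.0628), Foxp1 at 0.30 (0.02 to 0.58; limma, adjusted p = 0.0924) and Nkx2-1 at 0.34 (0.01 to 0.67; limma, adjusted p = 0.1). None of 8 members was called, beside 31.5% of all tested genes, and 3 had an unadjusted p under 0.05. The median of all genes differed by -0.23 at 12 weeks. Glial markers moved in the same comparison: all 6 oligodendrocyte markers were lower at 12 weeks (median -2.47, from a sum of 2210 to 2870 RPKM to 444 to 477), as were all 5 astrocyte markers (median -1.15), each called. Their part in the estimates of the members was not tested. Estimated depth differed between the ages as well, in libraries of either label. It was 62500000 to 71300000 counting steps at 3 weeks and 43700000 to 47100000 at 12 weeks, and its part was not tested. With libraries scaled to a common median ratio, Foxp1 was at 0.62 (limma, adjusted p = 5.82e-04) and Foxp2 at 0.67 (limma, adjusted p = 5.9e-04), both called. In libraries labelled knockout Foxp2 was also at 0.37 (limma, adjusted p = 0.111), with 0 of 8 members called beside 11.8% of all genes. Six3 and Isl1 were at 0.06 and -0.31 in libraries labelled wild type and at 0.02 and 0.09 in those labelled knockout.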

How the data were processed

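RNA of 16 libraries was measured, and the authors deposited 1 table of RPKM values (reads scaled for transcript length and library depth) for 24176 gene symbols. CASAVA 1.8.2, cutadapt 1.6, TopHat2 and the mm9 mouse build are named, per the submitters' processing notes. Which counter was used, its strand setting and what RPKM was scaled to were not stated in the labels. From the smallest steps of single-exon genes, the denominator was estimated as 43400000 to 71300000 steps per library, where 1 step may be 1 read or 1 end of a pair. Floors from steps cover counting error only, whereas the 95% intervals given with differences come from limma and library-to-library spread.

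Values were tested as log2(RPKM + 0.5) with limma 3.58.1 in R 4.3.3, with an empirical Bayes variance trend, 1 mean per group and 8 residual degrees of freedom. The 12348 genes that reached 1 RPKM in 2 or more libraries were tested, with Benjamini-Hochberg adjustment over all of them in each comparison and a threshold of 0.05. The fit was checked on simulated data. Named genes were the 9 members, the 3 genes of highest r with each, Rai1, and from each list the called genes of largest change, up to 4 in each direction. Bsx, Adcyap1, Drd1, Penk, Tbr1, Avp, Hcrt, Zfhx3 and Foxp4 were also given as values chosen after they were seen. The members and lists were chosen with earlier results of these data known. Alternatives were pseudocounts of 0.1 and 1, other filters, median-ratio scaling, an untrended variance, the compared groups alone, a replicate block, each library left out, and each set left out of the mean. Promoters came from RefSeq on GRCm38.p6, a later build than mm9, and were matched by symbol, with no coordinate converted. Sequence of Nr5a1 and Foxp2 was not used here. Some genes of the lists are counted in them but not reported here.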

Additional observations from a re-analysis of the deposited data

How the results depend on the processing

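The 40 called region results of single members, in libraries of either label, include those of Fezf1, Nr5a1, Sim1, Nkx2-1 and Six3. These genes passed the filter through 1 region alone, so the stability of their results was largely fixed in advance. Of 480 alternative values for the 40 results, 467 kept their direction and side of the threshold. The other 13 kept their direction but were no longer called. The 13 were Foxp2 between hypothalamus and cortex labelled wild type (0.09 with median-ratio scaling and 0.33 to 0.43 with 1 library left out, against 0.38), Six3 in the same comparison (0.35 with median-ratio scaling and 0.35 to 0.53 with 1 library left out, against 0.51) and Six3 between hypothalamus and striatum labelled knockout (-0.68 with a pseudocount of 0.1 and -0.48 to -0.35 with 1 library left out, against -0.48). The count of members called with age in libraries labelled wild type went from 0 to 2 with median-ratio scaling (Foxp1 and Foxp2) and ranged from 0 to 1 with 1 library left out. The 1 was Isl1 without replicate 1 of 3-week striatum labelled wild type (-0.59; limma, adjusted p = 0.0438). In libraries labelled knockout the count went from 0 to 1 with median-ratio scaling (Foxp2). No member was called by genotype label, in any set or in the mean, under any alternative run.

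Of 436 genotype alternatives 20 changed sign, all from estimates of at most 0.13 in size, and the cause was not tested. With median-ratio scaling the striatal values at 3 weeks were 0.05 for Foxp2 and 0.02 for Six3, and Isl1 at 12 weeks was -0.08. With a pseudocount of 0.1 the mean of Fezf1 over the 4 sets was -0.07. With 1 library left out, Foxp2 ranged from -0.22 to 0.04 and Six3 from -0.27 to 0.10 in striatum at 3 weeks, and at 12 weeks Foxp2 from -0.19 to 0.01, Isl1 from -0.19 to 0.22 and Foxp1 from -0.11 to 0.09. In the same way Sim1 in hypothalamus ranged from -0.29 to 0.03, the mean of Fezf1 from -0.01 to 0.03 and that of Six3 from -0.05 to 0.04, and Six3 with age from -0.03 to 0.15. In libraries labelled knockout, age values ranged from -0.16 to 0.21 for Six3 and from -0.12 to 0.29 for Isl1. With 1 library left out, the lone library of its group was assumed to vary like the others. Only the compared groups could not be fitted for the mean of 4 sets, which uses all libraries.

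Counts over all genes moved by more than 1.5 times under some alternatives. The genotype counts were 5 in cortex (0 to 38), 4 in striatum at 3 weeks (0 to 5), 5 at 12 weeks (1 to 13), 1 in hypothalamus (0 to 10) and 46 in the mean (12 to 55). Region and age counts were lowest with 1 library left out or with only the compared groups: 5368 genes between striatum and cortex labelled wild type (3462 to 6562), 6921 between hypothalamus and cortex (4465 to 8220), and 3895 with age (1494 to 4381). In libraries labelled knockout the counts were 3818 between striatum and cortex (1542 to 5151), 6296 between hypothalamus and cortex (3772 to 7142) and 1455 with age (553 to 2542). The lowest counts came without replicate 2 of 3-week striatum labelled wild type for striatum against cortex, without replicate 2 of hypothalamus labelled wild type or knockout for hypothalamus against cortex, and without replicate 1 of 12-week striatum for age. Between striatum and cortex labelled knockout, the lowest count came with only the compared groups. Counts of differences between genotype effects stayed between 0 and 11.

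Replicate numbers were not treated as pairs in the main fit, because the labels name no shared animal or batch. Deviations of same-numbered libraries correlated at -0.34 in cortex, 0.44 in 3-week striatum, -0.22 in 12-week striatum and 0.15 in hypothalamus. With 2 libraries per group, these values cannot decide whether libraries were paired. With the replicate block, 0 members were called by genotype label in each set, and 4, 8 and 8 in the 3 region comparisons, as without it, and the genotype mean called 12 genes in all against 46. Depth limits Fezf1, Otp, Sim1 and Nr5a1 outside the hypothalamus, where they were at 0 or at few counting steps.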
